A study of Mus musculus with 32 samples.

Results

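Interferon-stimulated genes are genes whose transcription rises when a cell is exposed to interferon. A set of 35 of them was followed by name through mouse parathyroid cells grown in different hosts, out of 35458 genes summed from transcripts. All 35 had transcripts in the deposited tables, and 34 had at least 1 read in some library. Zbp1, a sensor of left-handed nucleic acids, had 0 reads in all 32 libraries.

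Each of the 32 libraries was made with the SMART-Seq HT kit from a pool of 10 to 20 red fluorescent cells, picked by hand from parathyroid tissue. The red protein, tdTomato, was driven from the parathyroid hormone gene (Pth), so the pick selects cells that use Pth. There were 8 experiments of 4 libraries each. The rat-host cells came from neonates of unknown sex, Gcm2-/- Wistar rats complemented with Pth-tdTomato mouse embryonic stem cells (ESCs), so that the cells are mouse and the host is rat. The grafted cells, labelled male and 12 weeks old, were ESC-derived cells of Gcm2-/- mice that had then been grafted; the recipient is not given in the labels. The mouse-host cells came from 9-week-old Gcm2-/- mice on a BDF1B6 background, complemented with the same kind of ESCs. There were 4 such experiments, with experiments 1 to 3 labelled female and experiment 4 male. The control cells came from C57BL/6-Pthtm1(P2A-tdTomato)/+ mice with their own parathyroid glands, in experiment 2 from females of 11 weeks and in experiment 1 from males of 8 weeks. Gcm2 is the transcription factor that parathyroid glands need to form, so the hosts lack parathyroid cells of their own. Rat host and graft rest on a single experiment, so host or grafting cannot be told apart from age, sex label or experiment there. The labels call the libraries biological replicates without naming the animals, so p-values over libraries measure the spread between libraries, which may be technical.

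Type I interferons bind a receptor made of IFNAR1 and IFNAR2, whose kinases JAK1 and TYK2 act on STAT2. With IRF9 it forms part of a complex that binds the interferon-stimulated response element in the promoters of the genes described here. The products bind or degrade foreign RNA, tether virions, modify proteins or feed back on the pathway, and many cells keep some of them at a basal level without infection.

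The promoters of several members carry the element, and those that recur in the results are printed to show what they share. The core letters searched were GAAANNGAAA, or TTTCNNTTTC on the other strand, within the 250 bases before the gene start in RefSeq promoters of build GRCm38.p6. Of the 35 members, 26 were matched in that table, and 12 of the 26 (46.2%) held the core, against 936 of 27025 genes (3.46%) in the whole table. The windows of 60 bases run 5′ to 3′ on the gene's strand, with the core in capitals, longer where cores overlap. They lie at chr8:71537562-71537621 (minus strand) for Bst2, chr5:120907526-120907585 (minus) for Oas1a, chr4:156200850-156200909 (minus) for Isg15 and chr3:142620579-142620638 (plus) for Gbp2. Those of Ifit3, at chr19:34583382-34583441 (plus), and of Ifit3b, at chr19:34607778-34607837 (plus), have the same letters. A match describes the letters and does not show binding. The core was not found in the windows searched for the other 14 members matched, among them Cmpk2, Ifi44, Irf7, Irf9, Trim25, Ifi35, Eif2ak2 and Xaf1.
Bst2: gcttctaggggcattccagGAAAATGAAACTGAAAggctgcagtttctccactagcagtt
Oas1a: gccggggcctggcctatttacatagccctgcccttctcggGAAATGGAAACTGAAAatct
Isg15: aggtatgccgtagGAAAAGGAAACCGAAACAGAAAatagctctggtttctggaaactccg
Gbp2: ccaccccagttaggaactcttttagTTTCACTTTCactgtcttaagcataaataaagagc
Ifit3: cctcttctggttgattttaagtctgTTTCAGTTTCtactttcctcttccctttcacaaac
Ifit3b: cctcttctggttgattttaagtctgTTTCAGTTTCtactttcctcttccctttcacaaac

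The likeness of the last pair extends into the transcripts. Of the 31-base stretches of Ifit3, 61.8% also occur in Ifit3b, and 68% of those of Oas1a occur in Oas1g. The division of reads between such copies is uncertain, so values of Ifit3, Ifit3b and Oas1a may include reads of a neighbour. No stretch of Cmpk2, Bst2, Rtp4, Ifi27 or Ifi35 was shared with another gene.

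Library totals were 29471254 to 32264864 reads in control experiment 1 and 9470744 to 15098391 reads in the other 28 libraries, with 11556 to 13429 genes detected by at least 1 read. Levels are given in CPM, a gene's reads per 1000000 reads assigned to genes, with each library total adjusted by edgeR's TMM scaling. Where genes are compared with each other they are given in TPM, a share per transcript length without that scaling. Mouse-host experiment 4 and the graft are labelled male, but the Y-linked genes Ddx3y and Eif2s3y summed to at most 0.0882 CPM there and in every other library outside control experiment 1, which had 64.5 to 97.5 CPM. The 6 parathyroid genes Pth, Gcm2, Casr, Chga, Gata3 and Vdr together took 157821 to 177604 CPM in rat-host cells and 257589 to 367594 CPM in all other libraries, which fits the label of the cells. Markers of all white blood cells (Ptprc, Coro1a, Laptm5, Cd52, Cd53) summed to 0 CPM in 28 of 32 libraries and to at most 5.66 CPM. Fibroblast markers (Col1a1, Col1a2, Col3a1, Dcn, Lum, Pdgfra) stood apart in 2 libraries, with 3109 CPM in control experiment 2 replicate 3 and 2312 CPM in mouse-host experiment 2 replicate 4. They reached 410 CPM in graft replicate 1 and 81.8 CPM in graft replicate 4.

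Most members were present at low levels, and few were present everywhere. Ifi27, Bst2, Trim25, Ifi35 and Ifih1 reached 1 CPM in all 32 libraries, and Rtp4, Irf9, Eif2ak2, Cmpk2 and Gbp7 did so in 24 to 31. A further 14 members did so in 9 to 23 libraries and 10 in 1 to 8. Those 10 were Isg15, Ifit2, Ifit3, Ifit3b, Ifi44, Gbp2, Mx1, Mx2, Oas2 and Oas3. On the TPM scale, averaged over the 8 experiments, Ifi27 led with 118 TPM, ahead of Bst2 with 62.6, Trim25 with 28.4, Ifi35 with 26.9, Rtp4 with 24 and Irf7 with 12.1 TPM. Isg15, which interferon-treated cells make in large amounts, averaged 2.38 TPM and had 0 reads in 18 libraries. The number of members at 1 CPM or more was 20 to 27 per rat-host library, 9 to 15 per graft library, 14 to 23 per mouse-host library, 19 to 26 in control experiment 2 and 10 to 16 in control experiment 1. Over all genes the number at 1 CPM or more was 11051 to 11336, 9711 to 10451, 10083 to 11308, 10653 to 11581 and 10599 to 11002 in the same groups.

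**Figure D1:**
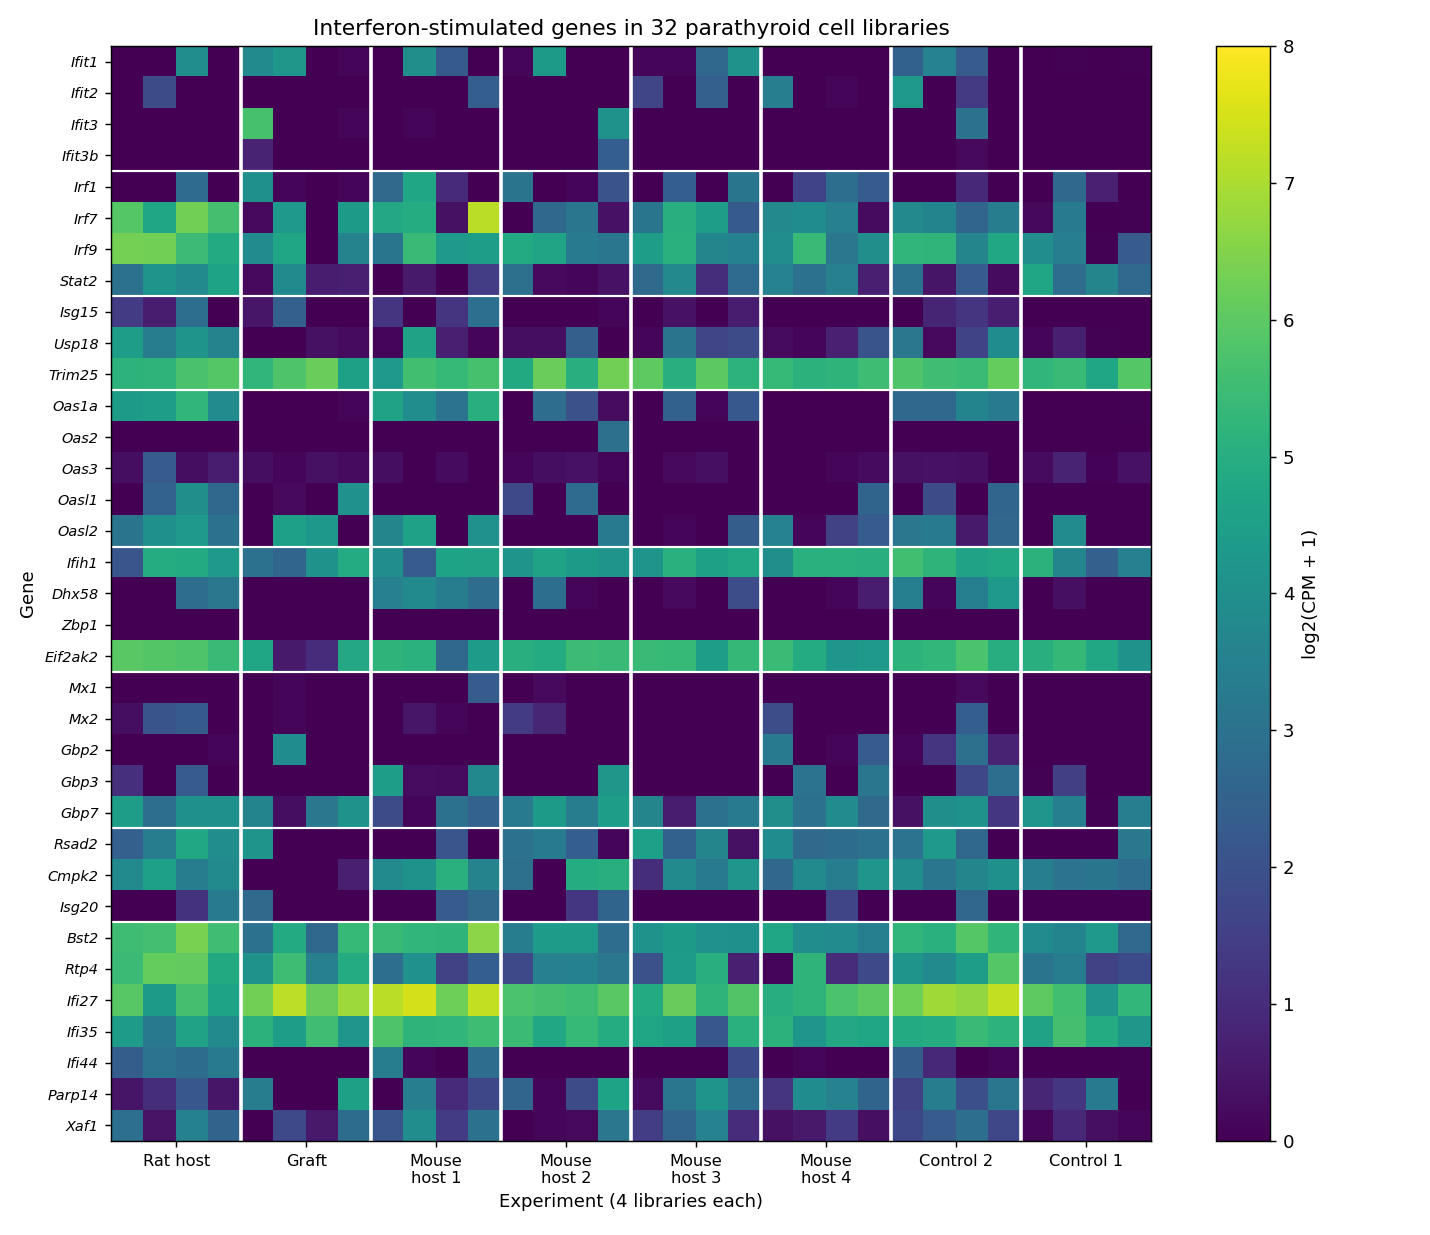
Level of each of the 35 members (rows, grouped by role) in each of the 32 libraries (columns, grouped by experiment), as log2(CPM + 1). Trim25, Ifih1, Ifi35, Bst2 and Ifi27 are lit in every column, while Zbp1 is dark throughout and most other rows are lit in some libraries of an experiment and dark in others.

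Rat-host cells were set against mouse-host cells to ask how the members compare between mouse cells grown in rats and in mice. No member passed the test over all genes, in which 101 of 15698 genes (0.643%) were called, 34 higher (0.217%) and 67 lower (0.427%). Of the 34 members tested, 21 had a positive and 13 a negative log2 fold change, with a median of 0.77 against -0.03 over all genes tested. An unadjusted edgeR p below 0.05 was found for 4 of the 34 members, against 1816 of the 15698 genes. No member had all its rat-host libraries above, or all below, every mouse-host library, as 1.65% and 1.37% of genes had. The members with positive values included the transcription factors Irf7, Irf9 and Stat2, and the smallest adjusted p belonged to Rtp4. The test was edgeR's quasi-likelihood test on the 8 experiment sums with Benjamini-Hochberg adjustment, and calls needed an adjusted p below 0.05. It takes rat host and graft, with 1 sum each, to vary like the other arms.

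Rtp4, a chaperone-like protein that also binds foreign RNA, had 43.2, 68.3, 66.3 and 27.9 CPM in rat-host cells. In mouse-host cells it had 6.39, 15.5, 1.99 and 4.23 CPM in experiment 1, 2.41, 10.1, 10.5 and 8.04 in experiment 2, 2.95, 20.5, 31.2 and 0.615 in experiment 3, and 0.0913, 36.1, 1.04 and 2.38 in experiment 4. All rat-host libraries lay above the mouse-host libraries except replicate 3 of experiment 3 and replicate 2 of experiment 4, so the groups overlapped. The log2 fold change was 2.48 (SE 0.66), with an edgeR adjusted p of 0.178.

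Irf7, the factor that amplifies interferon production, had 58.3, 25.7, 76.8 and 48.5 CPM in rat-host cells. In mouse-host cells it had 27.5, 30.2, 0.271 and 142 CPM in experiment 1, 0, 5.58, 7.8 and 0.309 in experiment 2, 7.62, 32.1, 21.2 and 3.83 in experiment 3, and 12.5, 13.7, 10.1 and 0.176 in experiment 4. The highest library of all was thus a mouse-host one, replicate 4 of experiment 1, and the log2 fold change of 1.38 (SE 1.15) had an edgeR adjusted p of 0.738. Irf9, the DNA-binding subunit of the interferon-activated complex, ranged from 28.5 to 79.3 CPM in rat-host cells and from 7.58 to 41 CPM in mouse-host cells, with a log2 fold change of 1.58 (SE 0.56, edgeR adjusted p = 0.325). Stat2 ranged from 6.93 to 23.7 CPM in rat-host and from 0 to 12.7 CPM in mouse-host cells.

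Usp18, which removes ISG15 from proteins and damps receptor signalling, had 20.9, 9.47, 16.5 and 11 CPM in rat-host cells and a median of 0.437 CPM in mouse-host cells, where it reached 23.2 CPM in 1 library. The most abundant member had a negative value. Ifi27, a small protein of mitochondrial and nuclear membranes, had 59.6, 19.4, 49.2 and 24.2 CPM in rat-host cells, all below the 4 libraries of mouse-host experiment 1. Of these, 19.4 and 24.2 CPM lay below every mouse-host library and the other two within the range of experiments 2 to 4, with a log2 fold change of -0.85 (SE 0.75, edgeR adjusted p = 0.748). Ifi35, a leucine zipper protein, had 20.1, 8.34, 23.5 and 13.2 CPM in rat-host cells and 3.47 to 54 CPM in mouse-host cells, with a log2 fold change of -0.91 (SE 0.42, edgeR adjusted p = 0.476). Parp14, an ADP-ribosyl transferase, had a log2 fold change of -2.23 (SE 0.93, edgeR adjusted p = 0.415). The members therefore did not share a direction, although those called with limma voom, named in the last section, were all higher in rat-host cells. In rat-host cells, macrophage markers summed to 0 CPM in all 4 libraries and the 5 white blood cell markers to at most 2.72 CPM, with Ptprc, Laptm5 and Cd52 at 0. Markers of T and NK cells summed to 0.294 to 0.945 CPM there, and MHC class II genes to 51.3 to 66.9 CPM. Host cells in these pools would be rat cells, counted on mouse transcripts, so the sums may miss them.

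Trim25, a ubiquitin ligase that acts on the RNA sensor RIG-I, had 34.9, 36.2, 50.7 and 57.9 CPM in rat-host cells and 18.9 to 77.6 CPM in mouse-host cells, with a log2 fold change of 0.08 (SE 0.28). Some members had 0 reads in all rat-host libraries. These were Ifit3, Ifit3b, Oas2 and Mx1, with 157, 41, 66 and 51 reads over the 16 mouse-host libraries. Against a floor of 3 reads over the rat-host group, they were at least 15.8-fold, 4.12-fold, 6.63-fold and 5.12-fold lower in rat-host cells. Nearly all of these mouse-host reads came from 1 library per gene, replicate 4 of experiment 2 for Ifit3, Ifit3b and Oas2 and replicate 4 of experiment 1 for Mx1.

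**Figure D2:**
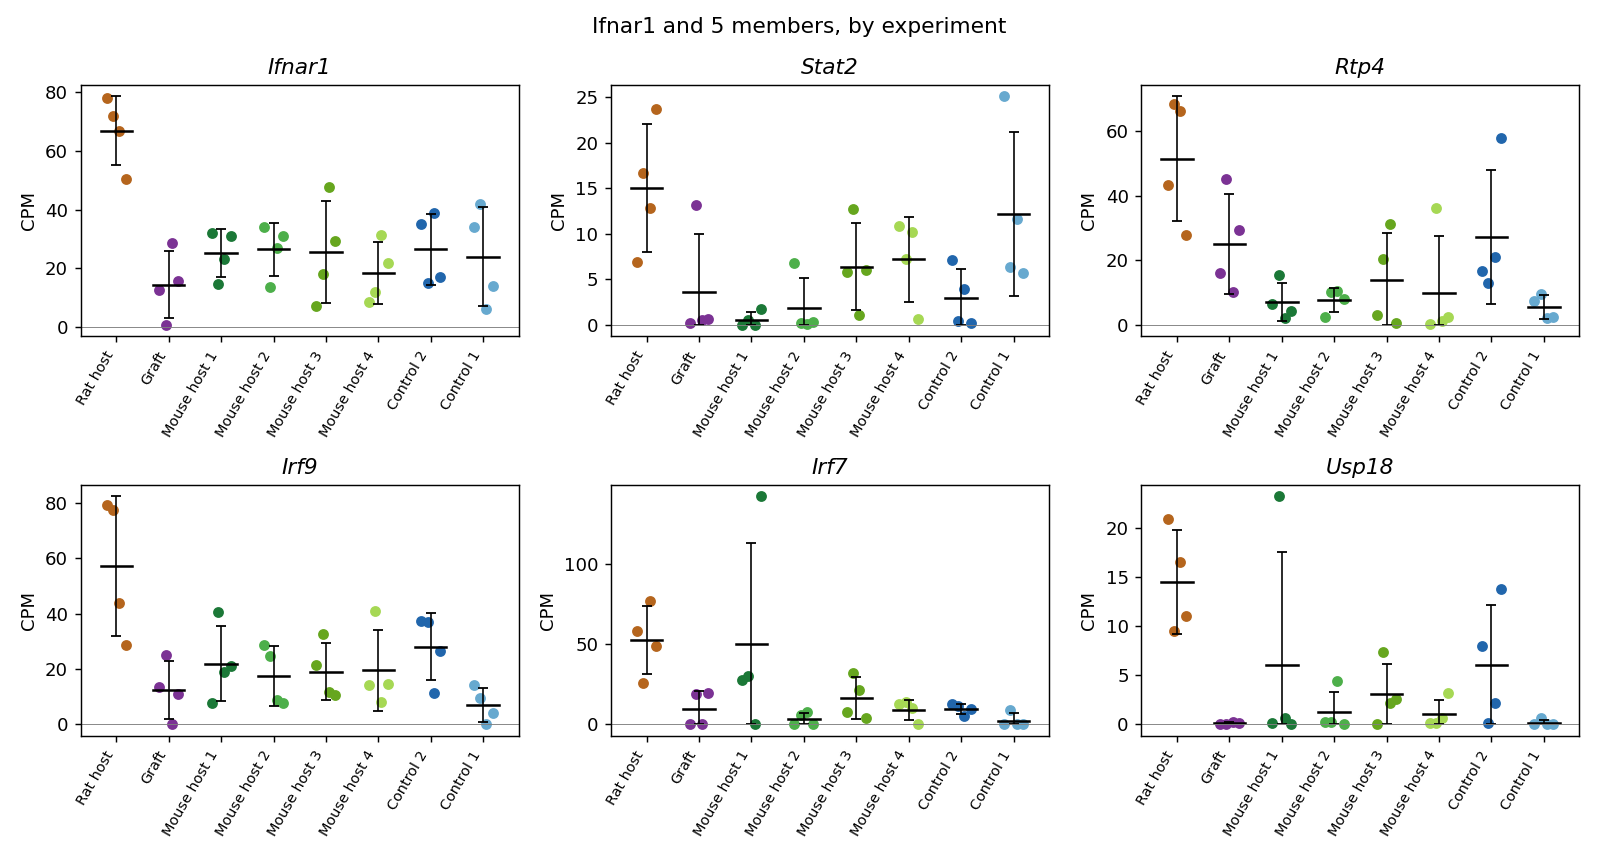
Level in CPM of the receptor gene Ifnar1 and of the members Stat2, Rtp4, Irf9, Irf7 and Usp18 in each library (points), with the mean (wide bar) and the SD of 4 libraries (whiskers, stopped at 0). The rat-host points of Ifnar1 (50.6 to 77.9 CPM) lie above every other point, while those of the members overlap with other experiments.

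Grafted cells were set against the ungrafted mouse-host cells. A single member passed the test, Cmpk2, which was lower in the graft, where 18 of 15698 genes (0.115%) were called, 3 higher (0.0191%) and 15 lower (0.0956%). Of the 34 members tested, 13 had a positive and 21 a negative log2 fold change, with a median of -0.25 against -0.09 over all genes tested. No member had all graft libraries above or below every mouse-host library, as 0.446% and 0.299% of genes had. Besides Cmpk2, 2 members had an unadjusted edgeR p below 0.05, Eif2ak2 and Gbp3, as had 1940 of the 15698 genes in all.

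Cmpk2 encodes a mitochondrial nucleotide kinase and lies beside Rsad2 in the genome. It had 0, 0, 0 and 0.616 CPM in grafted cells. In mouse-host cells it had 13.2, 16.3, 32.5 and 10.9 CPM in experiment 1, 6.75, 0, 29.8 and 31.1 in experiment 2, 1.06, 13.3, 9.03 and 17.2 in experiment 3, and 5.3, 12.9, 9.33 and 17.1 in experiment 4. Only the mouse-host library with 0, replicate 2 of experiment 2, overlapped with the graft. The same gene had 13.1, 21.8, 9.25 and 12.9 CPM in rat-host cells, 14.1, 7.74, 11.7 and 15.1 CPM in control experiment 2, and 9.65, 7.24, 7.56 and 6.23 CPM in control experiment 1, all above the graft. The graft held 7 reads against 2602 in mouse-host cells, a ratio of 0.0103 in CPM (95% counting interval 0.00416 to 0.0213). The log2 fold change was -6.58 (SE 0.84), with an edgeR adjusted p of 0.0453. The adjusted p lay between 0.0247 and 0.0732 when single libraries were left out, and the call was lost without any of the 4 libraries of mouse-host experiment 1 or 2, replicate 2, 3 or 4 of experiment 3, replicate 1, 2 or 4 of experiment 4, replicate 1, 2 or 4 of control experiment 2, or replicate 1 of control experiment 1. It was also lost, with an adjusted p of up to 0.133, without any of the 6 control and mouse-host experiments. The direction held in all 47 alternatives. Without graft replicate 4, which holds all of the graft's reads of the gene, the fitted log2 fold change was -12.62.

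Rsad2, whose product viperin makes a chain-terminating nucleotide, was not called. It had 16.6, 0, 0 and 0 CPM in the graft and 0 to 21.7 CPM in mouse-host cells, with a log2 fold change of -0.44 (SE 1.23, edgeR adjusted p = 0.915). All 209 graft reads came from replicate 1, the graft library with 410 CPM of fibroblast and 29.5 CPM of macrophage markers. Without that library the fitted log2 fold change was -11.35 (edgeR adjusted p = 0.102). Eif2ak2, the double-stranded RNA-activated kinase PKR, averaged 13.5 CPM in the graft and 23.8, 36.5, 35.4 and 27.1 CPM in the mouse-host experiments, with a log2 fold change of -1.20 (SE 0.38, edgeR adjusted p = 0.275). The graft libraries were split, at 24.8, 0.507, 1.01 and 27.5 CPM. The values of 24.8 and 27.5 CPM lay within the mouse-host range of 5.51 to 43.3 CPM. Grafted cells had 0 reads of Ifit2, Dhx58, Gbp3, Ifi44 and Oas2, which had 241, 541, 691, 202 and 66 reads in mouse-host cells. Against the floor of 3 reads over the graft these were at least 20.9-fold, 46.9-fold, 59.9-fold, 17.5-fold and 5.72-fold lower in the graft, and none passed the test. The mouse-host reads were uneven between libraries. All 66 reads of Oas2 came from replicate 4 of experiment 2. Gbp3 had 0 reads in every library of experiment 3, as had Ifit2 in experiment 2. Replicates 1 and 4 of experiment 1 held 87 and 77 of the Ifi44 reads. Dhx58 had 95, 135, 106 and 76 of its reads in experiment 1. Usp18 had 5 reads in the graft and 515 in mouse-host cells, and Oas1a, which makes the oligoadenylates that activate RNase L, had 1 read in the graft and 1068 in mouse-host cells. For Oas1a the ratio was 0.0036 in CPM (95% counting interval 9.11e-05 to 0.0201), and its edgeR adjusted p was 0.555. Mouse-host experiment 1 held 215, 145, 81 and 393 of the Oas1a reads, while experiment 4 had 0 in every library, so low Oas1a was not particular to the graft. Of the 515 Usp18 reads, 235 came from replicate 2 of mouse-host experiment 1.

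The members highest in TPM were read in the graft without a call. Ifi27 had 77.3, 147, 70.1 and 113 CPM, above all 12 libraries of mouse-host experiments 2 to 4 and among those of experiment 1, with a log2 fold change of 0.56 (SE 0.68, edgeR adjusted p = 0.745). Rtp4 had 16, 45.1, 10.2 and 29.3 CPM in the graft, with a log2 fold change of 1.47 (SE 0.69, edgeR adjusted p = 0.445). Bst2, the tetherin that holds virions at the cell surface, had 6.93, 28.5, 5.35 and 40.3 CPM in the graft. Irf7 had 0.159, 18.9, 0 and 19.5 CPM, with a log2 fold change of -1.04 (SE 1.36), Trim25 had 37.8, 55.2, 71.6 and 22.2 CPM, and Ifi35 had 34.3, 21.6, 45.6 and 17.4 CPM in the graft. For each of these 4 the graft's values lay within the range of mouse-host cells or overlapped with it, and the edgeR adjusted p was 0.766 or above.

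Of the Ifit genes, whose products bind foreign RNA, Ifit1 reached 1 CPM in 11 libraries, Ifit2 in 7 and Ifit3 in 3. Ifit3 had 50.4 CPM in graft replicate 1 and at most 0.088 CPM in the other grafts. The next highest libraries were mouse-host experiment 2 replicate 4 with 16.1 CPM and control experiment 2 replicate 3 with 7.01 CPM, and all others had at most 0.0985 CPM. These 3 libraries are the 3 with the highest fibroblast marker sums, 410, 2312 and 3109 CPM. In the same order, macrophage markers summed to 29.5, 8.14 and 72.5 CPM, and markers of T and NK cells to 5.41, 0 and 0.571 CPM. Dendritic cell markers summed to 9.31, 0.412 and 0.326 CPM. The values of 72.5, 5.41 and 9.31 CPM were the highest of any library for their markers. The markers of all white blood cells, however, summed to 0 CPM in each of these 3 libraries. In the graft, the macrophage markers Adgre1, Csf1r and Mrc1 had 0 reads. So had the T and NK cell markers Cd3e, Cd3d, Cd3g, Cd2, Trac and Cd4 and the dendritic cell markers Siglech and Clec9a. Oas2 was read only in mouse-host experiment 2 replicate 4, at 6.8 CPM, and Ifit3b reached 1 CPM only there, at 4.23 CPM. The part of fibroblasts or immune cells in these values was not tested. In bulk pools such as these, fewer cells of a kind and less RNA per cell cannot be told apart.

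**Figure D3:**
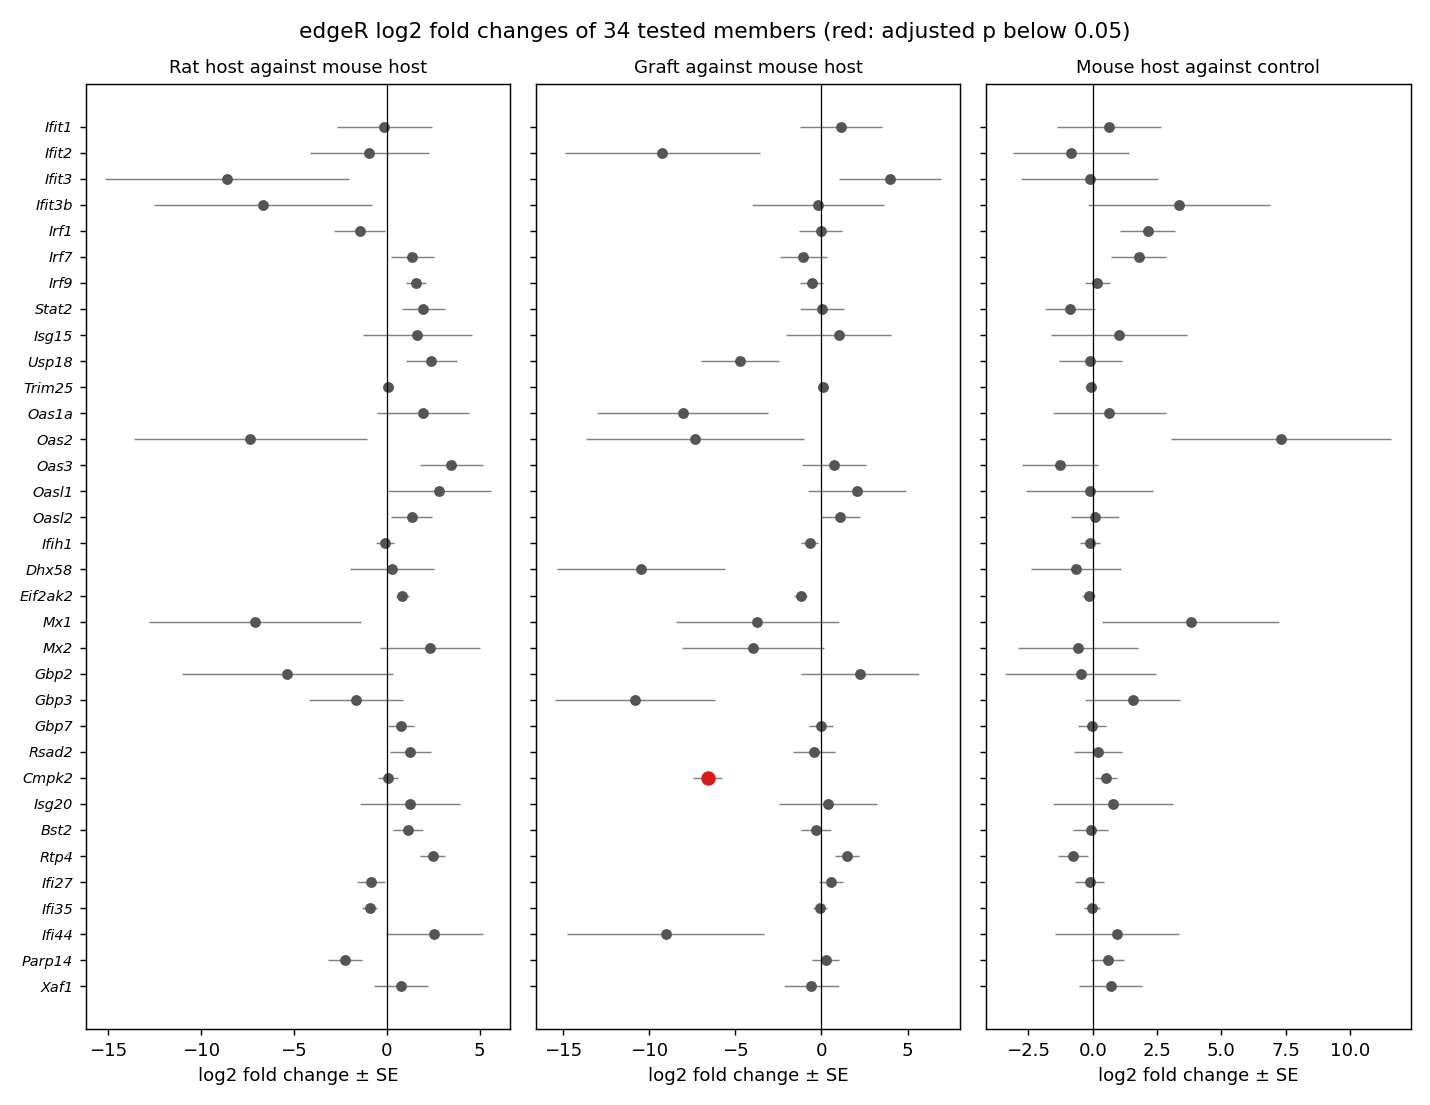
Log2 fold changes of the 34 tested members, as points with their SE, for rat host against mouse host, graft against mouse host and mouse host against control (edgeR on experiment sums). Each panel has its own horizontal scale. The single red point is Cmpk2 in the graft, at -6.58, and the members with wide bars are those with few reads in a group.

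Mouse-host cells were set against control cells to compare ESC-derived with native parathyroid cells. No member was called and no gene of 15698 was (0%, smallest adjusted p 0.892), with 691 genes at an unadjusted p below 0.05, none of them a member. No member had all its mouse-host libraries above or below every control library (0% and 0.00637% of genes). Positive and negative log2 fold changes were even among the members, 17 each, with a median of 0.03 against 0.00 over all genes. Bst2 averaged 52.5, 13.9, 16.4 and 15.8 CPM in mouse-host experiments 1 to 4, against 41.3 CPM in control experiment 2 and 12.3 CPM in control experiment 1. Ifi27 averaged 137, 52, 47.5 and 45.4 CPM in the mouse-host experiments, against 112 CPM in control experiment 2 and 41.3 CPM in control experiment 1. Irf1, a factor induced by several cytokines, averaged 7.96, 2.64, 2.95 and 3.11 CPM in the mouse-host experiments, against 0.224 CPM in control experiment 2 and 1.52 CPM in control experiment 1, with no call. Both arms thus held an experiment with high and an experiment with low values of Bst2 and Ifi27, and the spread within an arm exceeded the difference between the arms. With DESeq2, 1 member was called, Oas2, whose reads all came from a single library.

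Among the 4 mouse-host experiments, experiment 1 had the highest mean of Bst2, Ifi27 and Oas1a. These 3 genes are described because their values were seen to differ. Of 24 members tested across experiments, 1 was called, Ifi27, where 165 of 12195 genes (1.35%) were. Ifi27 had 144, 179, 73.6 and 152 CPM in experiment 1, 52.7, 49.1, 44.7 and 61.5 in experiment 2, 28.7, 69.2, 36.2 and 55.9 in experiment 3, and 30.6, 36.1, 52.5 and 62.6 in experiment 4. All libraries of experiment 1 lay above the other 12, and the edgeR adjusted p was 0.0176. Without replicate 2 or replicate 4 of experiment 1 the call was lost, with an adjusted p of up to 0.103 when single libraries were left out.

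Bst2 had 40.8, 37.1, 36 and 96 CPM in mouse-host experiment 1, 9.57, 20.1, 19.8 and 6.18 in experiment 2, 15.9, 19.5, 15.4 and 15 in experiment 3, and 25.4, 14.3, 13.5 and 9.97 in experiment 4. Its libraries of experiment 1 also lay above all others, with an edgeR adjusted p of 0.0662. Oas1a had 23.3, 14.3, 7.32 and 32 CPM in experiment 1, 0, 6.3, 2.98 and 0.206 in experiment 2, 0, 4.61, 0.0806 and 3.62 in experiment 3, and 0 in each library of experiment 4, with an edgeR adjusted p of 0.119. Experiment 1 again lay above the rest, though its lowest value, 7.32 CPM, was close to the 6.3 CPM in experiment 2. The share of all genes with such a separation was not counted, and these genes were picked after their values were seen. The separation is therefore not read as a result about the members. Ifi35 and Trim25 did not show this split. Ifi35 had 54, 35.7, 37.3 and 44.4 CPM in experiment 1, 42.6, 26.1, 40.1 and 30.3 in experiment 2, 25.8, 22.2, 3.47 and 32.7 in experiment 3, and 34, 17.6, 27.2 and 25.2 in experiment 4. Trim25 had 18.9, 46.8, 39.7 and 49.5 CPM in experiment 1, 28.1, 71.2, 32 and 77.6 in experiment 2, 64.3, 31.5, 62.6 and 35.1 in experiment 3, and 40.1, 34.3, 36.2 and 44.9 in experiment 4.

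The 2 control experiments differ in sex, age and sequencing depth together, so these cannot be told apart from each other or from experiment. Native cells of experiment 2 had higher values of most members than those of experiment 1, without a call. Of the 18 members tested, 16 had a positive log2 fold change, with a median of 1.30 against -0.01 over all genes tested. No member was called by edgeR, where 2 of 11544 genes (0.0173%) were. An unadjusted edgeR p below 0.05 was found for 6 of the 18 members, against 622 of the 11544 genes. In 5 of the 18, Oas1a, Bst2, Rtp4, Ifi27 and Xaf1, every library of experiment 2 lay above every library of experiment 1, as in 2.17% of all genes tested. No member had every library of experiment 2 below experiment 1, against 2.25% of all genes. DESeq2 called 8 members in this comparison, all higher in experiment 2, of 172 genes in all.

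Oas1a had 5.58, 5.52, 11.2 and 8.73 CPM in control experiment 2, against 0, 0, 0 and 0.0348 CPM in control experiment 1. The log2 fold change was 9.08 (SE 1.46), with an edgeR adjusted p of 0.11, and 373 reads stood against 1 read although experiment 1 was sequenced more deeply. Bst2 had 37.5, 32.6, 58.4 and 36.8 CPM in experiment 2, against 13.6, 11.1, 18.6 and 5.64 CPM in experiment 1, with a log2 fold change of 1.77 (SE 0.42, edgeR adjusted p = 0.424). Ifi27 had 74.4, 115, 103 and 154 CPM in experiment 2, against 63, 47.1, 16.9 and 38 CPM in experiment 1, with a log2 fold change of 1.45 (SE 0.36, edgeR adjusted p = 0.439).

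Rtp4 had 16.5, 13, 21.1 and 57.8 CPM in control experiment 2, against 7.36, 9.57, 1.99 and 2.47 CPM in control experiment 1. Irf7 had 12.6, 11.2, 5.05 and 9.48 CPM in experiment 2, against 0.136, 9.03, 0 and 0.0348 CPM in experiment 1, so the groups overlapped at 1 library. Ifi35 had 28.4, 29.9, 40.9 and 35.3 CPM in experiment 2, against 23.2, 48.4, 29 and 18 CPM in experiment 1, and Trim25 had 54.7, 46.1, 42.6 and 68.7 CPM in experiment 2, against 37.4, 41, 25.9 and 58.5 CPM in experiment 1. Ifi35 and Trim25, present in every library, overlapped between the experiments, with log2 fold changes of 0.19 and 0.39.

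Several members that the filter on low counts kept out of the test were also read in experiment 2 and not in experiment 1. Ifit2, Ifit3, Isg15, Oasl1, Mx2, Gbp2 and Isg20 had 33 to 225 reads in control experiment 2 and 0 in control experiment 1. Against a floor of 3 reads they were at least 27.7-fold (Isg15) to at least 189-fold (Ifit2) higher in experiment 2. The reads of Ifit3, Mx2 and Isg20 came from replicate 3, the library with 3109 CPM of fibroblast markers, as did 83 of the 110 reads of Gbp2. Of the 225 reads of Ifit2, 206 came from replicate 1. Dhx58, the regulator LGP2 of RNA sensors, had 459 reads in experiment 2 and 8 in experiment 1, nearly all from 3 of the 4 libraries. Stat2 and Gbp7 were the tested members with a negative value, and Stat2 had 7.06, 0.383, 3.91 and 0.168 CPM in experiment 2, against 25.1, 6.3, 11.6 and 5.64 CPM in experiment 1. Of the members kept out of the test, Irf1 and Oas3 were also lower in experiment 2. Irf1 had 11 reads against 193, of which 172 came from replicate 2, a ratio of 0.144 in CPM (95% counting interval 0.0706 to 0.263). Oas3 had 10 reads against 40, a ratio of 0.631 (0.281 to 1.28). Markers of macrophages ranged from 0.0839 to 72.5 CPM in control experiment 2 and from 0 to 10.9 CPM in control experiment 1. Their part in the member values was not tested, and without replicate 3 of experiment 2, the library highest in macrophage and fibroblast markers, the log2 fold changes of Oas1a, Bst2, Rtp4, Ifi27 and Xaf1 were 8.88, 1.55, 2.46, 1.49 and 3.10.

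**Figure D4:**
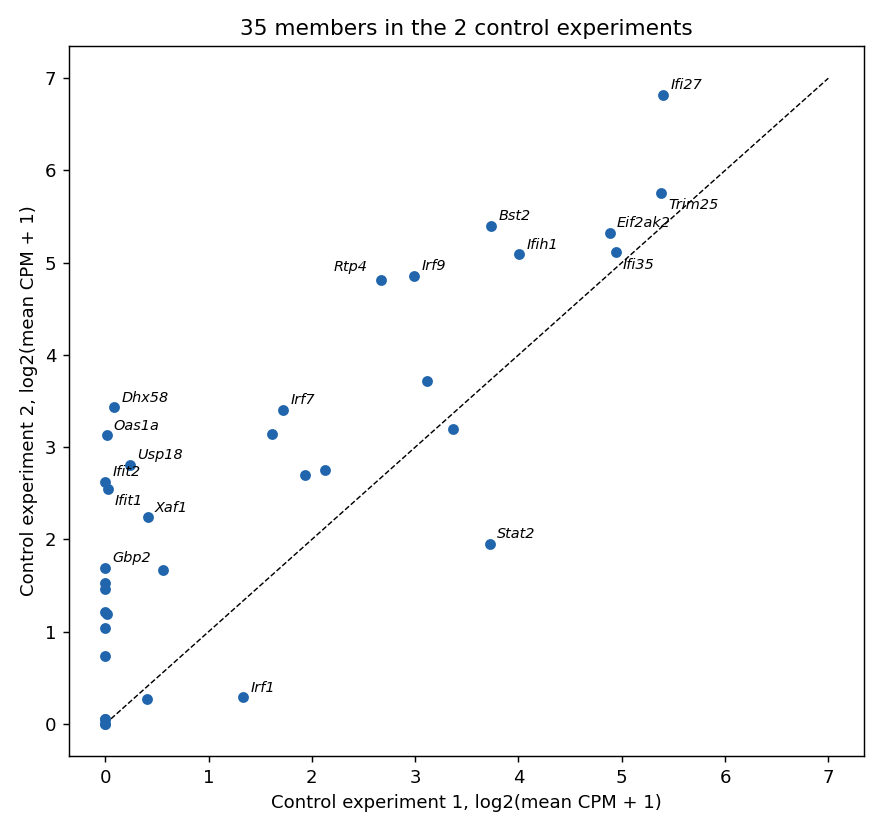
Mean level of each of the 35 members in control experiment 2 (vertical axis) and control experiment 1 (horizontal axis), as log2(mean CPM + 1), with the line of equality dashed. Most points lie above the line, among them Oas1a, Bst2, Rtp4, Ifi27 and Xaf1, while Stat2 and Irf1 lie below it.

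Compared gene by gene across all 8 experiments, 6 of 29 members tested were called, where 1433 of 13135 genes (10.9%) were. They were Oas1a (edgeR adjusted p = 6.6e-05), Ifi27 (0.000869), Bst2 (0.00377), Ifi44 (0.00967), Gbp2 (0.0263) and Cmpk2 (0.0453). They did not share an order of experiments. Oas1a had at most 1 read each in the graft, mouse-host experiment 4 and control experiment 1. Its mean was highest in rat-host cells, with 19.7, 20.8, 37.7 and 13.6 CPM, followed by mouse-host experiment 1 and control experiment 2. The rat-host values overlapped with the 7.32 to 32 CPM of mouse-host experiment 1. Bst2 was high in the same 3 experiments, with 44.4, 48, 82 and 46.2 CPM in rat-host cells, and the means of these 3, 55.1 ± 18, 52.5 ± 29.1 and 41.3 ± 11.6 CPM (SD, n = 4 each), lay within their spread of each other. Ifi27 was high in mouse-host experiment 1 (137 ± 44.9 CPM), control experiment 2 (112 ± 33.2) and the graft (102 ± 35.3), and lowest in rat-host cells (38.1 ± 19.4 CPM, SD, n = 4 each), which did not differ beyond their spread from the remaining 4 experiments.

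Ifi44, a protein of unsettled function, was read in all 4 rat-host libraries, at 4.08, 7.21, 6.09 and 8.71 CPM. It reached 1 CPM in only 4 of the other 28 libraries, namely 9.42 and 6.26 CPM in mouse-host experiment 1, 2.46 CPM in mouse-host experiment 3 and 4.18 CPM in control experiment 2. Gbp2, a guanylate-binding GTPase that attacks the membranes of intracellular microbes, showed another pattern, with 0.093, 1.3, 6.76 and 0.755 CPM in control experiment 2, 9.13, 0, 0.0943 and 4.06 CPM in mouse-host experiment 4, 13.8 CPM in 1 graft, and 0 reads in all 12 libraries of mouse-host experiments 1 to 3 and in control experiment 1. The call of Gbp2 was lost without rat-host replicate 4 (edgeR adjusted p = 0.0628). That of Cmpk2 held in 6 of the 32 fits that left out 1 library, namely those without graft replicate 4, replicate 1 of any mouse-host experiment, or replicate 2 of mouse-host experiment 2. The other 4 were called in all 32.

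**Figure D5:**
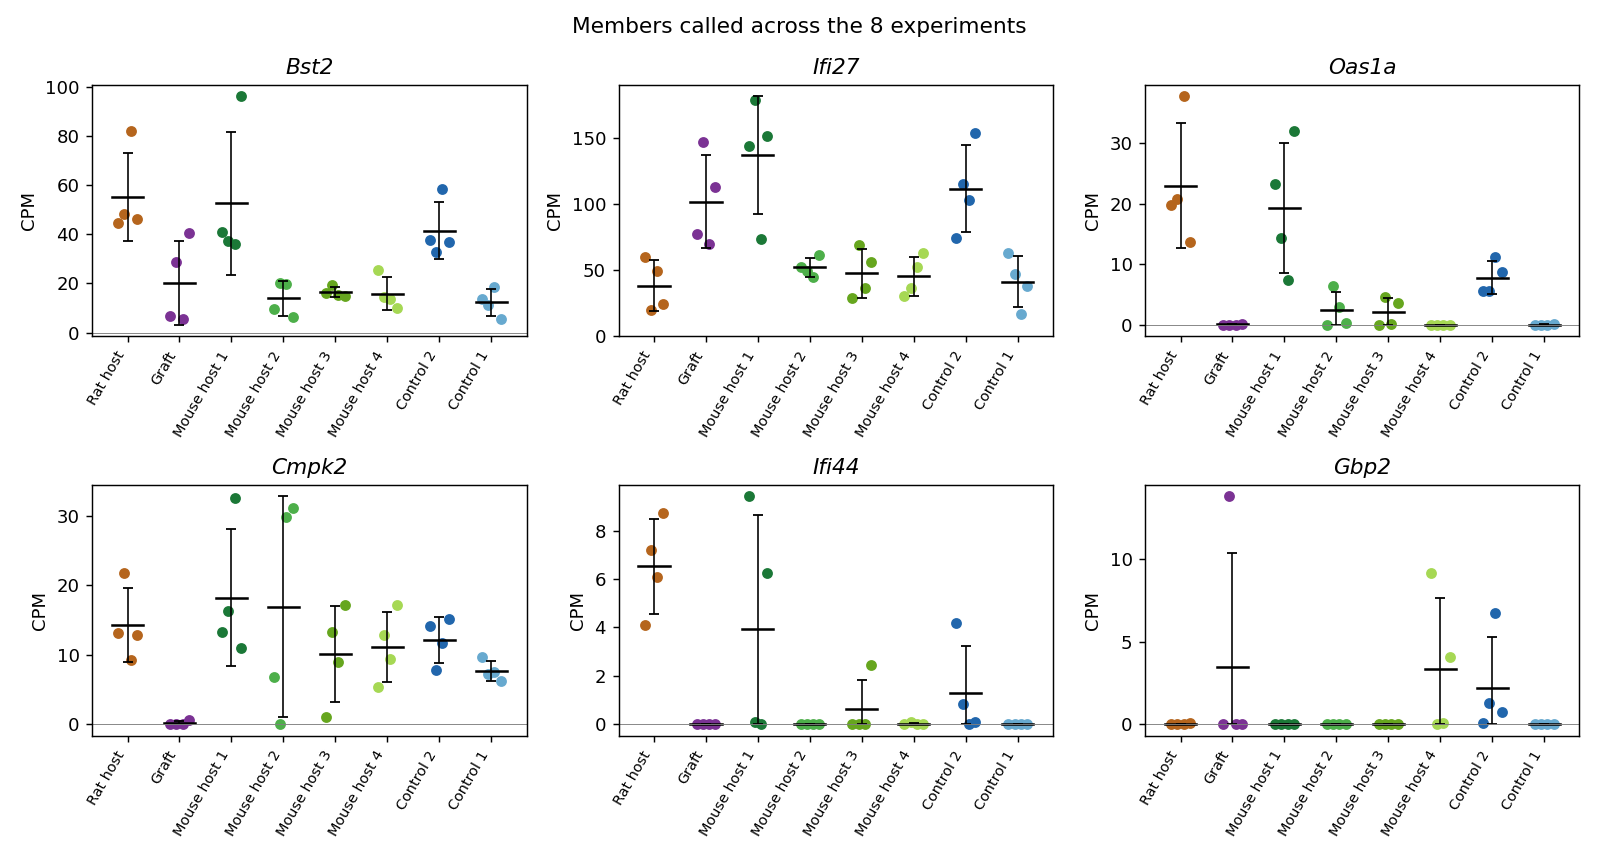
Level in CPM of the 6 members called across the 8 experiments, in each library (points), with the mean (wide bar) and the SD of 4 libraries (whiskers, stopped at 0). Oas1a and Bst2 are high in rat host, mouse-host experiment 1 and control experiment 2, Ifi27 is high in the graft in place of the rat host, and Cmpk2 is near 0 in all 4 libraries of the graft and of no other experiment.

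Within families the members also differed. Of the oligoadenylate synthetases and the synthetase-like Oasl1 and Oasl2, Oas1a reached 1 CPM in 16 libraries, Oasl2 in 18 and Oasl1 in 9. Oas2 and Oas3 did so in 1 each. The GTPase Gbp7 reached it in 27 libraries and its relatives Gbp3 and Gbp2 in 10 and 5, and Mx2 and Mx1, which block viral nucleocapsids, in 5 and 1. Of the RNA sensors, Ifih1 (MDA5) was read everywhere, averaging 14.4 CPM in the graft to 33.1 CPM in control experiment 2, whereas Dhx58 had 0 reads in 15 libraries. Ifih1 was not called in any comparison. Xaf1, a pro-apoptotic zinc finger protein, averaged 0.328 CPM in control experiment 1 to 6.51 CPM in mouse-host experiment 1.

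Upstream of the members, the receptor chains were expressed in every library. Ifnar1 had 77.9, 72, 66.9 and 50.6 CPM in rat-host cells and 7.12 to 47.8 CPM in mouse-host cells, without overlap, with a log2 fold change of 1.52 (SE 0.28) and an edgeR adjusted p of 0.0696. Ifnar2 averaged 99.2 CPM in rat-host cells and 122 to 161 CPM in the mouse-host experiments, with a log2 fold change of -0.45 (SE 0.22, edgeR adjusted p = 0.511). The interferon genes themselves were almost silent, their 21 listed members summing to 0 CPM in 12 libraries and to at most 14.7 CPM, in graft replicate 3. Ifnb1 and Ifng had 0 reads in all 32 libraries. Of the 11 genes of MHC class I antigen presentation, which interferon also raises, 9 had a negative log2 fold change in rat-host against mouse-host cells, with a median of -0.88, and none was called. Of 47 further interferon-stimulated genes tested, none was called in rat host, graft or mouse host, with medians of 0.00, -0.16 and -0.04 in these comparisons. Among the mouse-host experiments, 3 of 34 of them were called, Ifitm3, Lgals3bp and Ly6e, against 1.35% of all genes, each with its highest mean in experiment 1. Across all 8 experiments, 11 of 40 of them and 5 of 10 MHC class I genes were called, against 10.9% of all genes.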

How the data were processed

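Per the submitters' processing notes, the authors quantified transcripts with Salmon on build GRCm39; neither the version of Salmon nor the annotation is stated in the notes. The authors deposited, for each library, estimated counts (expected counts) and TPM per transcript. Estimated counts were summed to genes with GENCODE M21 (115685 of 116747 transcripts matched; the other 1062 held 0.493% of reads and were left out) and rounded to whole numbers. TPM were summed the same way and used for levels between genes. No pair of libraries within a group was a duplicate deposit (lowest chi-square per degree of freedom 41.0 over 48 pairs).

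Tests used edgeR 4.0.16 in R 4.3.3, with TMM scaling, its filter on low counts, the quasi-likelihood test and Benjamini-Hochberg adjustment over all genes tested. Arm comparisons used 1 sum per experiment (8 sums, 1 fit); comparisons of experiments used single libraries and an F-test where there were more than 2. The code was tested on simulated data. Alternatives used DESeq2 1.42.0 and limma 3.58.1, other scaling, no filter, log2 of the authors' TPM plus 1 or 0.1, the replicate block, other units of replication, and fits leaving out each library or experiment. Intervals and floors on reads cover only the error of counting, since reads without molecular identifiers are not independent molecules.

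The members and lists were chosen with earlier results of these data known. Values in every library are given for members called in an arm comparison or between the control experiments and for the 6 members highest in mean TPM; other members by counts, ranges and examples, chosen by role or, where said, after their values were seen. The remaining members called across experiments were named for that. A gene of the pathway lists is not reported here.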

Additional observations from a re-analysis of the deposited data

Results flagged for a closer look

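In 7 of 101 groups of 4 libraries (a member in an experiment, with at least 3 reads in each library), 1 library stood apart by Dixon's criterion, where chance gives about 1 in 20. Bst2 had 82 CPM in rat-host replicate 3, against 44.4 to 48 CPM in the other 3, and 96 CPM in mouse-host experiment 1 replicate 4, against 36 to 40.8 CPM. Both are experiments with high Bst2 in all 4 libraries. Oas3 had 3.89 CPM in rat-host replicate 2, against 0.219 to 0.54 CPM in the other 3, and most of its rat-host reads come from there. In mouse-host experiment 4, Ifih1 had 14.5 CPM in replicate 1, against 31.1 to 33 CPM in the others, Rsad2 had 13.7 CPM in replicate 1, against 5.81 to 7.06 CPM, and Xaf1 had 1.6 CPM in replicate 3, against 0.265 to 0.447 CPM. Eif2ak2 had 21.4 CPM in mouse-host experiment 3 replicate 3, against 39.6 to 40.5 CPM. The causes were not tested.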

How the results depend on the processing

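The number of members called depended on the tool. Rat host against mouse host had 0 calls, against 2 with DESeq2 (Rtp4 and Oas2), 1 with either TPM offset (Oas3), 1 with single libraries taken as independent (Rtp4), 1 of these with the replicate block and 7 with limma voom and experiment as a random effect. The 7 called with voom were Bst2, Ifi44, Irf7, Oas1a, Rtp4, Stat2 and Usp18, all higher in rat-host cells. Each of them had a positive log2 fold change in all 47 alternatives. Graft against mouse host had 1 call, against 6 with DESeq2 and 0 with log2(TPM + 1). Mouse host against control had 0 calls, against 1 with DESeq2. Control experiment 2 against 1 had 0, against 8 with DESeq2 and 1 with either TPM offset (Oas1a). Among the mouse-host experiments 1 was called, against 3 with DESeq2, 4 with log2(TPM + 1) and 3 with log2(TPM + 0.1), and among all 8 experiments 6, against 13 with either offset. Leaving out 1 library or experiment gave 0 to 1 in the graft, 0 to 2 among mouse-host experiments and 4 to 7 among all 8 experiments. No call reversed. Counts over all genes moved more. Rat host against mouse host called 101 genes, against 173 with no filter on low counts, 1062 with DESeq2, 592 and 524 with TPM plus 1 and 0.1, 776 with single libraries, 820 of these with the replicate block, 1043 with voom, and 12 to 127 leaving out a library or experiment. Graft against mouse host called 18, against 53, 1266, 259, 292, 477, 420, 316 and 0 to 77 in the same order. Mouse host against control called 0, against 162 with DESeq2, 7 and 8 with TPM, 14 with single libraries, 4 with their block and 42 with voom. Control experiment 2 against 1 called 2, against 172 with DESeq2, 4 with TPM, 0 with the block, 1 without the library high in fibroblast markers, and 0 to 4 leaving out a library. Among mouse-host experiments 165 were called, against 773 with DESeq2, 293 and 276 with TPM and 78 to 202 leaving out a library, and among all 8 experiments 1433, against 2541, 2837 and 2663. The replicate numbers do not pair the libraries: over 112 pairs the correlation of deviations was -0.11 to 0.0504 (median -0.00268), and in 25 of the 112 the library correlated best with its own number. With the replicate block, 0, 1 and 6 members were called in control experiment 2, among mouse-host experiments and among all 8. Without the 2 libraries highest in fibroblast markers, a setting chosen after seeing the data, the counts were 0, 1, 0, 0, 1 and 5. For members at a few reads per library, depth limits what can be told.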
